A study of Sus scrofa with 31 samples.

Results

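FOS, FOSB, FOSL1, FOSL2, JUN, JUNB and ATF3, 7 genes for related transcription factors, were followed in pig heart muscle through storage outside the body and after warm reperfusion. They were found by gene name, which gave all 7 among the 21313 genes listed for stored hearts and 4 of them, FOS, FOSL1, JUNB and ATF3, among the 25149 genes listed for reperfused hearts. FOSB, FOSL2 and JUN after reperfusion were not analysed here. On the Sscrofa11.1 assembly all 7 are annotated as protein coding, with FOS on chromosome 7 (98449508 to 98451971), FOSB on chromosome 6 (51836780 to 51844531), FOSL1 on chromosome 2 (6430158 to 6436173) and FOSL2 on chromosome 3 (110820403 to 110842903). JUN lies on chromosome 6 (153686425 to 153687635), JUNB on chromosome 2 (66214086 to 66219435) and ATF3 on chromosome 9 (130772259 to 130829678).

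The proteins carry a basic leucine zipper, a stretch that lets them pair and grip DNA. FOS proteins bind DNA only as partners of a JUN protein, and the pair is the AP-1 factor. JUN proteins can also pair with each other, and ATF3 pairs with itself or with JUN proteins and often acts as a repressor. In resting tissue most of these genes are nearly silent; stretch, growth factors, surgery, ischemia and reperfusion switch them on within minutes through MAP kinases and serum response factor, and their short-lived messages then decay. FOS, FOSB, JUN, JUNB and ATF3 are classed as immediate early genes, while FOSL1 and FOSL2 usually follow more slowly.

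In the stored hearts, 3 pigs (2, 4 and 6) were in the HOPE group and 3 pigs (1, 3 and 5) in the SCS group, each biopsied first at 0 h and again after 12, 24 and 48 h, which gave 24 libraries of bulk RNA. HOPE and SCS are not spelled out in the labels; their usual readings are hypothermic oxygenated perfusion and static cold storage. Another 7 libraries came from hearts that were stored and afterwards put through normothermic machine perfusion (NMP), a warm circulation of perfusate, for 2 h: 1 after 24 h of SCS, and 2 each after 3, 24 and 48 h of HOPE. Breed, age and sex are not given in the sources used here. Each mode is 3 hearts, so mode and pig cannot be told apart at any single time. The labelled cell type is cardiomyocytes; all 12 cardiomyocyte markers were detected in the stored hearts, but so were all 12 endothelial, 10 fibroblast and 12 T and NK cell markers, so each value is a mixture. In such bulk tissue fewer cells of a type and less RNA per cell cannot be told apart.

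Values in stored hearts are normalised counts, that is, reads divided by a size factor per library, from 19722065 to 35099406 reads. They are not divided by gene length, so levels are not compared between genes there. Changes are log2 differences of the value plus 1, given with the standard error (SE) of limma's fit; a gene is called at an adjusted p under 0.05 over all 14141 genes with a mean of at least 10. FOSL1, at a mean of 5.42 normalised counts, fell below that minimum, so 6 of the 7 genes were tested. FOSB had a mean of 28.4, but of 9.72 over the libraries other than those of HOPE pig 6. It thus passed the minimum only through the heart where it was high. Its test results below depend on that heart and are only descriptive. The SCS pig 5 library at 48 h stood apart, with 82.4% of its reads from 13 mitochondrial genes, against at most 62.1% in any other library of these hearts. Without that pig limma called 5 genes (0.0354%) for HOPE against SCS at 48 h, against 884 with it. The drop was not particular to that pig, with 10 genes without HOPE pig 2, 11 without HOPE pig 4 and 57 without SCS pig 3. The count rose to 3160 without HOPE pig 6 and to 3282 without SCS pig 1. Over the stored libraries the 13 mitochondrial genes took 29.0% to 35.9% of reads in HOPE and 33.1% to 82.4% in SCS.

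Before storage the hearts differed most in ATF3 and FOS. ATF3, a stress-induced repressor, was at 139, 319 and 1707 normalised counts in HOPE pigs 2, 4 and 6, and at 116, 188 and 86.4 in SCS pigs 1, 3 and 5. The highest heart was 19.5-fold above the lowest, and the SD of the 6 log2 values was 1.55. Only 1.30% of the genes tested had a larger SD, and the median gene had 0.36. FOS, the founding partner of JUN, was at 25.9, 91.2 and 47.8 in HOPE hearts and at 207, 150 and 34.8 in SCS hearts, a 7.72-fold range that 3.05% of genes exceeded in SD. FOSB, a close relative of FOS, ranged 5.26-fold between 4.58 and 28.3 normalised counts, with 8.15% of genes more variable. JUN spanned 864 to 3288 normalised counts, a 3.80-fold range with 19.3% of genes more variable. JUNB and FOSL2 were steadier than most genes, with 1.78-fold and 1.72-fold ranges and 55.7% and 64.2% of genes more variable. FOSL1 lay between 1.53 and 8.10 normalised counts, on 2 to 10 reads.

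The wide spread at 0 h showed no full split by storage mode. The log2 differences of HOPE from SCS at 0 h were 1.77 ± 1.44 for ATF3, -1.07 ± 0.69 for FOS and 0.72 ± 0.38 for JUN (limma). They were 0.29 ± 1.37 for FOSB, 0.29 ± 0.27 for FOSL2 and -0.25 ± 0.23 for JUNB. With 3 hearts a mode, the values cannot decide whether the spread follows the mode. None of the 6 genes had the HOPE hearts all above or all below the SCS hearts at 0 h, a separation that 5.23% of genes showed with HOPE higher and 6.19% with HOPE lower. limma called 0 of 6 at 0 h, with 0% of all genes called; 0 of the 6 had an unadjusted p under 0.05, and edgeR and DESeq2 called 0 as well. The heart with the highest ATF3 and FOSB was HOPE pig 6, whereas SCS pig 1 was highest in FOS and SCS pig 5 in JUNB. Endothelial markers summed to 25866, 18482 and 56974 normalised counts at 0 h in HOPE pigs 2, 4 and 6, and to 46765, 59630 and 54310 in SCS hearts. Their part in the spread was not tested.

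**Figure D1:**
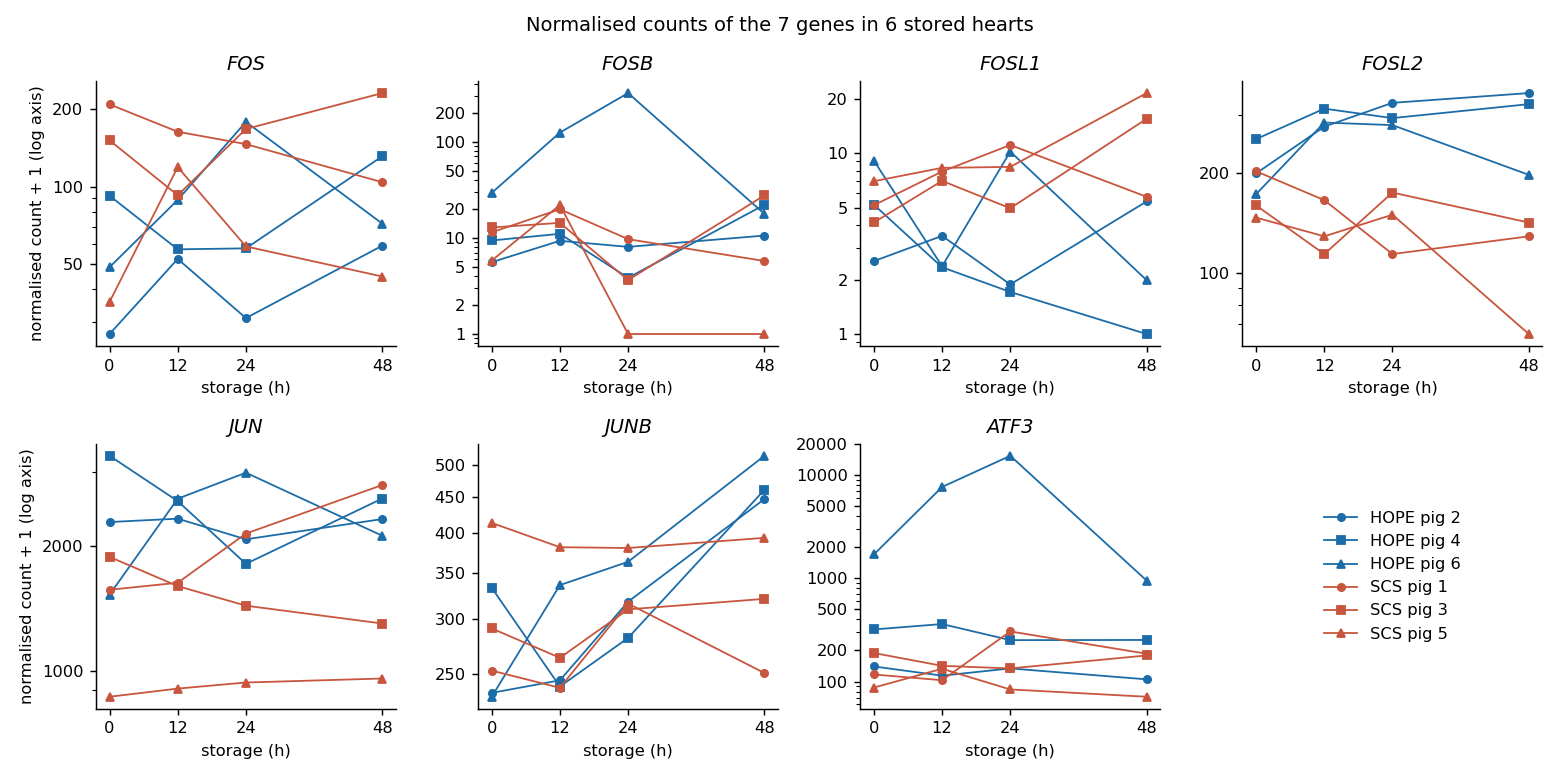
Normalised counts plus 1 (log axis) of each gene against storage time in hours, with 1 line per heart, HOPE pigs in blue and SCS pigs in red. FOSL2 separates the modes from 12 h on, JUNB separates them at 48 h, and ATF3 and FOSB are far above the other hearts in HOPE pig 6, at 15458 and 318 normalised counts at 24 h.

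FOSL2, which codes for the slower FOS relative FRA-2, was higher in HOPE than in SCS hearts after 24 and 48 h. Over the times 0, 12, 24 and 48 h it read 199, 276, 326 and 349 normalised counts in HOPE pig 2, then 253, 313, 293 and 323 in HOPE pig 4, and 172, 284, 279 and 197 in HOPE pig 6. Over the same times it read 202, 165, 113 and 128 in SCS pig 1, then 159, 113, 174 and 141 in SCS pig 3, and 146, 128, 149 and 64.3 in SCS pig 5. All 9 stored HOPE values lay above all 9 stored SCS values, while the modes overlapped at 0 h. The share of all genes with every HOPE heart above every SCS heart was 11.6% for 12 h, 13.9% for 24 h and 10.5% for 48 h.

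The log2 difference of HOPE from SCS in FOSL2 was 0.29 before storage and 1.11, 1.06 and 1.41 after 12, 24 and 48 h, each with an SE of 0.27 (n = 3 hearts a mode). limma called it at 24 h (adjusted p = 0.0493) and at 48 h (adjusted p = 0.0151). It was the 1 gene of 6 called at each of these times, against 1.27% of all genes called higher for 24 h (2.04% in either direction) and 3.84% for 48 h (6.25% in either direction). With the pig as a block the adjusted p was 0.0358 for 24 h and 0.00927 for 48 h in limma, where 9.87% and 11.5% of all genes were called. For 12 h limma called 0 of 6, FOSL2 and JUN having an unadjusted p under 0.05, with 0% of all genes called higher and 0.0141% called in either direction (0.0424% with the block). FOSL2 had an adjusted p of 0.238 at 12 h in limma. DESeq2 called it there, at 1.10 ± 0.26 (adjusted p = 0.014), with 0.608% of all genes called, and edgeR did not. With 3 hearts a mode, no call stood against every omission: the 24 h call was lost without HOPE pig 2, HOPE pig 4, SCS pig 3 or SCS pig 5, and the 48 h call without HOPE pig 2, HOPE pig 4 or SCS pig 5. The difference itself stayed between 0.89 and 1.20 for 24 h and between 1.06 and 1.67 for 48 h over all 6 omissions, with adjusted p up to 0.255 at 24 h in limma. Without SCS pig 5, whose 48 h library held 22 FOSL2 reads, the 48 h difference was 1.06 ± 0.27 (limma, adjusted p = 0.14).

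**Figure D2:**
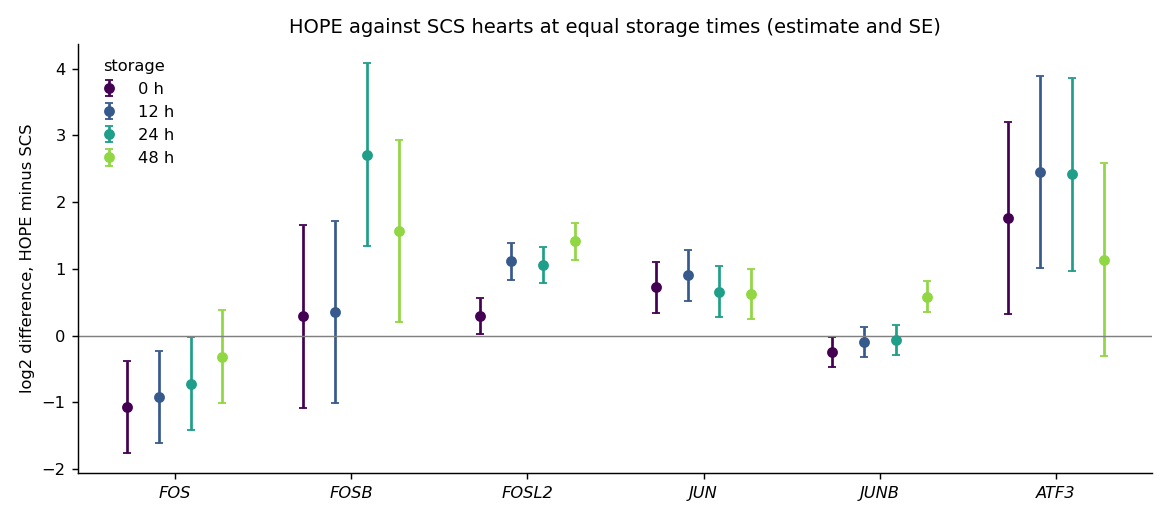
Log2 difference of HOPE from SCS hearts for the 6 genes tested, at 0, 12, 24 and 48 h, with each point at limma's estimate and bars of 1 SE. FOSL2 lies at 0.29 at 0 h and at 1.06 to 1.41 in storage, whereas the estimates of FOSB and ATF3 carry SEs over 1.

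Set against each heart's own 0 h value, FOSL2 lay above it in HOPE hearts and mostly below it in SCS hearts. After 12 h the log2 change was 0.47, 0.31 and 0.72 in HOPE pigs 2, 4 and 6, against -0.29, -0.49 and -0.19 in SCS pigs 1, 3 and 5. After 24 h it was 0.71, 0.21 and 0.69 in HOPE, against -0.83, 0.13 and 0.03 in SCS hearts. After 48 h it was 0.81, 0.35 and 0.19 in HOPE, against -0.65, -0.18 and -1.18 in SCS hearts. Every HOPE change was thus above every SCS change, which 6.54% of genes showed for 24 h. All 3 HOPE hearts were above 0 h in 15.0%, 16.2% and 18.5% of genes over the 3 times, and all 3 SCS hearts below it in 19.0% of genes for 12 h and 16.2% for 48 h. Both together held for 2.67% of genes after 12 h and 2.64% after 48 h. The exact two-sided permutation test of 3 changes against 3 gave p = 0.1 at each time, the smallest it can give, and 0.343 adjusted over the 24 such tests on the 6 genes. limma's test of the difference in change at 48 h gave 1.12 ± 0.39 (adjusted p = 0.988), or an adjusted p of 0.158 with the pig as a block, where 0.127% of all genes were called.

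Lymphocyte and red cell marker sums of stored hearts differed between the modes as well. Mitochondrial shares of reads overlapped, at 29.0% to 35.9% in stored HOPE and 33.1% to 82.4% in stored SCS libraries. Markers of T and NK cells summed to 286.2 to 512.1 normalised counts in the 9 stored HOPE libraries and to 849.2 to 2272 in the 9 stored SCS libraries, against 608.8 to 1419 in HOPE and 1059 to 1636 in SCS at 0 h. All 12 markers of this list were detected. The 5 red cell markers found of 6 summed to 127.6 to 2333 in stored HOPE hearts and to 36.37 to 103.0 in stored SCS hearts. Across the 24 libraries, which share 6 pigs, log2 FOSL2 and the T and NK sum had a Pearson r of -0.77. The part of these cells in the FOSL2 difference was not tested.

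FOS itself showed no shared course in storage. After 12, 24 and 48 h it read 51.5, 30.0 and 58.1 normalised counts in HOPE pig 2, then 56.2, 56.7 and 130 in HOPE pig 4, and 87.8, 177 and 70.9 in HOPE pig 6. Over the same times it read 162, 145 and 103 in SCS pig 1, then 91.6, 166 and 229 in SCS pig 3, and 118, 57.7 and 43.9 in SCS pig 5. The modes were apart only at 12 h, with every HOPE heart lower, as in 12.0% of all genes. At 48 h all 3 HOPE hearts were above their own 0 h value, by 0.51 to 1.13 (log2), which 18.5% of genes also were. The limma estimate for HOPE at 48 h against 0 h was 0.73 ± 0.69 (adjusted p = 1).

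FOSB was low in every heart but HOPE pig 6. There it read 28.3, 123, 318 and 16.7 normalised counts over the 4 times. The other 2 HOPE hearts stayed between 2.84 and 21.0 at every time, and SCS hearts between 0 and 26.6. After 12 h it was above the 0 h value in all 6 hearts, and after 24 h it was below it in all 3 SCS hearts, by -0.24, -1.81 and -2.54 (log2), the last with its 0 reads taken as 0. After 12 h, 15.0% of all genes were above 0 h in all HOPE hearts and 18.4% in all SCS hearts. The share above it in all 6 hearts was not computed. Some of these FOSB changes rest on few reads, with 15 at 0 h and 11 after 12 h in SCS pig 3 (0.16 after scaling) and 6 and 10 in HOPE pig 2. After 24 h, 15.0% of genes were below 0 h in all SCS hearts. SCS pig 5 had 0 FOSB reads at 24 h and at 48 h, and 3 reads, the limit that a count of 0 allows, would be 4.44 and 8.77 normalised counts in those libraries. At these limits its changes from 0 h would be -0.09 after 24 h and 0.75 after 48 h, so their size and the sign after 48 h are not fixed by the data. The log2 difference of HOPE from SCS at 24 h was 2.71 ± 1.37 (limma, adjusted p = 0.206), and the change of HOPE at 24 h against 0 h was 0.90 ± 1.37 (limma, adjusted p = 0.999), or -0.38 without HOPE pig 6. Without that heart the difference of HOPE from SCS at 24 h was 0.76 ± 1.12 (limma, adjusted p = 0.663), and over all 6 omissions it ranged between 0.76 and 3.95.

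FOSL1, which codes for FRA-1, was close to silent in cold storage. At 48 h it had 6, 0 and 1 reads in HOPE pigs 2, 4 and 6 (4.41, 0 and 0.985 normalised counts), against 3, 12 and 7 reads in SCS pigs 1, 3 and 5 (4.74, 14.5 and 20.5 normalised counts). Every HOPE heart was below every SCS heart at 48 h, as in 10.2% of the genes tested. Tested with the minimum on low values dropped, the log2 difference was -2.49 ± 0.72 (limma, adjusted p = 0.0562). At 0 h the reads were 2, 4 and 10 in HOPE and 4, 4 and 5 in SCS hearts.

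JUN, the central AP-1 subunit, had no course shared by the hearts of a mode. Over the 4 times it read 2277, 2320, 2069 and 2315 normalised counts in HOPE pig 2, then 3288, 2557, 1806 and 2594 in HOPE pig 4, and 1522, 2592, 2994 and 2110 in HOPE pig 6. It read 1564, 1626, 2136 and 2796 in SCS pig 1, then 1877, 1596, 1432 and 1297 in SCS pig 3, and 864, 904, 935 and 956 in SCS pig 5. The modes were apart at 12 h, with every HOPE heart higher, as in 11.6% of all genes, and overlapped at the other times. The log2 difference of HOPE from SCS was 0.72, 0.90, 0.66 and 0.62 over the 4 times, each with an SE of 0.38, and limma's adjusted p was between 0.263 and 0.665. SCS pig 1 had the highest JUN of the 6 hearts at 48 h, and without it the difference was 1.07 ± 0.35 (limma, adjusted p = 0.0393). Without SCS pig 1 limma called 23.2% of all genes at 48 h, against 6.25% with it. Without SCS pig 5, the heart with the lowest JUN, the 48 h difference was 0.29 ± 0.33 (limma, adjusted p = 0.67).

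JUN and the endothelial markers ran opposite in some hearts and together in others. In SCS pig 1, with JUN at 1564 normalised counts before storage and 2796 after 48 h, the 12 endothelial markers summed to 46765, 39542, 24485 and 14833 over the 4 times. In HOPE pig 6 the sum was 56974, 37194, 31425 and 38863. In SCS pig 3 both were lower after 48 h than at 0 h, with JUN at 1297 after 48 h and 1877 at 0 h and the sum at 52424 and 59630. In SCS pig 5, the lowest in JUN at every time, both were higher after 48 h than at 0 h, with JUN at 956 and 864 and the sum at 56757 and 54310. Over the 24 libraries from 6 pigs, Pearson r of the log2 values was -0.79 with the endothelial sum and 0.70 with the sum of the 12 cardiomyocyte markers. The 3 genes most like JUN over these libraries were XIRP1, an actin-binding protein of the intercalated disc (r = 0.91), LMOD2, which lengthens thin filaments in heart muscle (r = 0.90), and ZFAND5, a ubiquitin-binding zinc finger protein (r = 0.88). Whether cell makeup bears on the JUN level was not tested.

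JUNB, a JUN relative that is a weaker activator, lay apart between the modes at 48 h, without passing the test. It was at 446, 460 and 515 normalised counts in HOPE pigs 2, 4 and 6 at 48 h, against 234, 332 and 231 at 0 h in the same hearts. In SCS pigs 1, 3 and 5 it was at 250, 320 and 392 at 48 h, against 252, 290 and 412 at 0 h. Every HOPE heart was above every SCS heart at 48 h, as in 10.5% of all genes. At 12 h and 24 h the modes overlapped, with 244, 239 and 335, then 317, 281 and 362 in HOPE and 238, 263 and 380, then 315, 309 and 379 in SCS hearts. From 0 h, the HOPE hearts were at changes of 0.93, 0.47 and 1.16 (log2) after 48 h and the SCS hearts at -0.01, 0.14 and -0.07. Of all genes, 7.91% had a larger change in every HOPE heart than in any SCS heart.

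limma called none of the JUNB contrasts with the authors' size factors. The change in HOPE at 48 h was 0.85 ± 0.23 (limma, adjusted p = 1), with an adjusted p of 0.138 when the pig was a block, and in SCS it was 0.02 ± 0.23 (limma, adjusted p = 0.996). HOPE differed from SCS by 0.58 ± 0.23 at 48 h (limma, adjusted p = 0.107), by 0.74 ± 0.22 (limma, adjusted p = 0.167) without SCS pig 5, and by 1.70 ± 0.32 (limma, adjusted p = 0.00118) with total counts, which moved the median of all genes to 1.12. Total counts called 57.3% of all genes at 48 h. The difference in change between the modes was 0.83 ± 0.32 (limma, adjusted p = 0.988; 0.121 with the block). The exact two-sided permutation test on the 3 against 3 changes gave p = 0.1, the smallest it can give, and 0.343 adjusted over the 24 tests.

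ATF3 had its highest values in a single heart. It read 1707, 7702, 15458 and 952 normalised counts over the 4 times in HOPE pig 6. HOPE pigs 2 and 4 stayed between 103.6 and 360.4 at all 4 times, and the SCS hearts between 70.16 and 305.1. The log2 change in HOPE pig 6 was 2.17, 3.18 and -0.84 after 12, 24 and 48 h, and the 24 h change was the 13th highest of 14141 genes in that heart. FOS was at 1.87. FOSB, at 3.44, was the 9th highest, but it was among the genes tested only through this heart, so its rank there is no separate support. The HOPE change of ATF3 at 24 h was 0.93 ± 1.44 (limma, adjusted p = 0.999), or -0.20 without HOPE pig 6. HOPE differed from SCS by 1.77 ± 1.44 at 0 h (limma, adjusted p = 0.712) and by 2.42 ± 1.44 at 24 h (limma, adjusted p = 0.276). Without HOPE pig 6 these differences were 0.76 ± 0.62 (limma, adjusted p = 0.476) and 0.28 ± 0.62 (limma, adjusted p = 0.781), and over all 6 omissions they ranged between 0.76 and 2.57 for 0 h and between 0.28 and 3.71 for 24 h. At 48 h every HOPE heart was below its 0 h value (13.8% of genes), by -0.34 to -0.84, and every HOPE change was below every SCS change, which ran between -0.30 and 0.66, as in 7.16% of genes. The lowest SCS change was that of SCS pig 5, on 24 reads at 48 h. limma's difference in change was -0.63 ± 2.04 (adjusted p = 0.992). The exact two-sided permutation test gave p = 0.1, the smallest it can give, and 0.343 adjusted.

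The genes most like ATF3 over the 24 libraries were ABRA, an actin-binding activator of serum response factor in muscle (r = 0.89), the immediate early gene IER5 (r = 0.89) and the orphan nuclear receptor NR4A1 (r = 0.89). In HOPE pig 6, IER5 was at 901.1, 2369, 3597 and 1015 normalised counts over the 4 times, NR4A1 at 1168, 3164, 5206 and 795.7, and ABRA at 2317, 4899, 9704 and 1943. Without this heart r was 0.16 for IER5 and 0.54 for NR4A1, and it stayed at 0.89 for ABRA. FOS was most like EGR1, another serum response gene (r = 0.82, and 0.80 without HOPE pig 6), the galactose enzyme GALM (r = 0.75) and the MYC antagonist MXI1 (r = 0.74). Among the 6 genes themselves, FOSB and ATF3 were the most alike (r = 0.79, and 0.41 without HOPE pig 6), followed by FOSL2 and JUN (r = 0.64). FOS had r between -0.13 and 0.18 with FOSL2, JUN, JUNB and ATF3. These are descriptions over libraries that share pigs and carry no test.

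**Figure D3:**
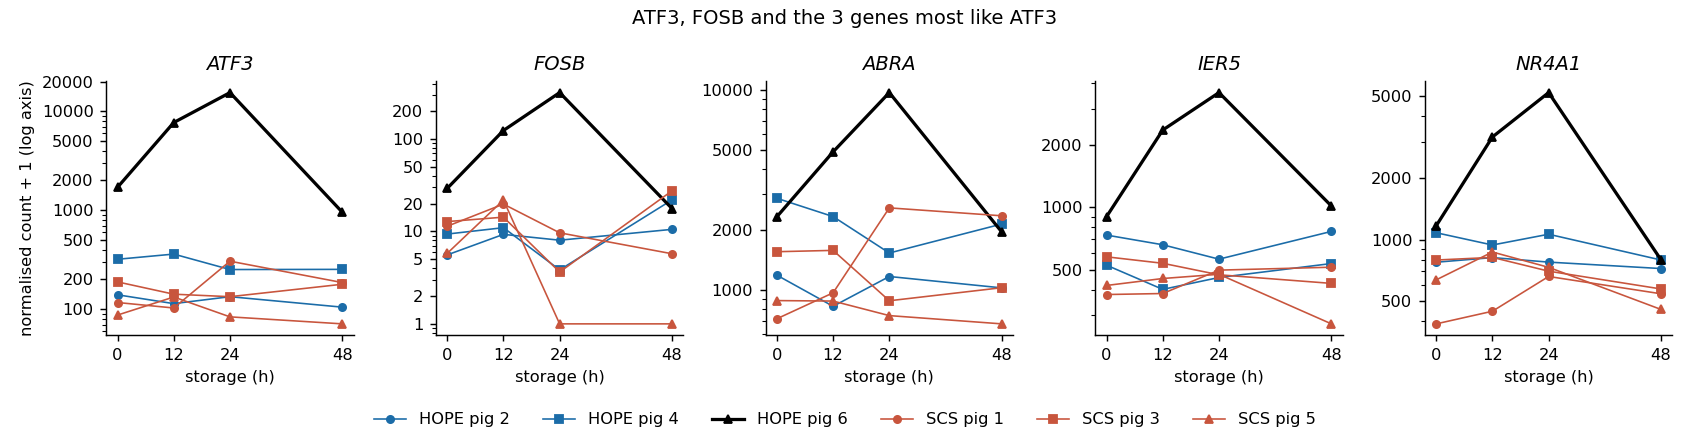
Normalised counts plus 1 (log axis) against storage time in hours for ATF3, FOSB and the 3 genes most like ATF3, with 1 line per heart and HOPE pig 6 in black. In HOPE pig 6 all 5 genes peak at 24 h, ATF3 at 15458 and ABRA at 9704 normalised counts, and ATF3 in the other 5 hearts is at most 360.4.

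HOPE pig 6 differed from the other HOPE hearts in other ways at 0 h, but not from the SCS hearts. Its cardiomyocyte markers summed to 1241894 normalised counts, against 1590450 and 1868079 in HOPE pigs 2 and 4, and its T and NK markers to 1419, against 638.2 and 608.8. In SCS pigs 1, 3 and 5 the cardiomyocyte sums were 1278078, 1207994 and 1442788. Their T and NK sums were 1153, 1636 and 1059. At 24 h the cardiomyocyte sum of HOPE pig 6 was 1962324 and its endothelial sum 31425. Whether the cell makeup of this heart bears on its ATF3 values was not tested.

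Within a mode, limma called 0 of the 6 genes after 12, 24 or 48 h of HOPE or SCS relative to 0 h, and 0% of all genes. The difference in change between the modes was likewise called for 0 of the 6 and 0% of all genes at each time. With an unadjusted p under 0.05 limma had JUNB for HOPE after 48 h and FOSL2 for SCS after 48 h (-0.67 ± 0.27; adjusted p = 0.567), and for the difference in change FOSL2 after 12 h and both genes after 48 h. edgeR and DESeq2 called 0 members in these comparisons. In the fit with a pig block limma called 2.18% of all genes for SCS after 48 h and 0.00707% for HOPE after 48 h, still with 0 of the 6.

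The pathway around AP-1 was read from 6 lists of genes. At 48 h limma called 8 of 90 list genes between HOPE and SCS (8.89%, against 6.25% of all genes), 3 higher and 5 lower in HOPE, and at 24 h 3 of 90 (3.33%, against 2.04%), shares near those of all genes. Without SCS pig 5 each of the 8 kept its direction and 0 of the 8 was called, with unadjusted p under 0.05 in all 8 and adjusted p between 0.15 and 0.253. At 0 h limma called 0 of the 90, but several of the genes named below already differed there in estimate, and limma called 0 genes for the difference in change between the modes, so their values after storage are not shown to be changes in storage. Of 22 kinases and serum response factors upstream, 21 were tested in stored hearts. At 48 h 1 was higher in HOPE, the stress kinase MAPK14 (0.85 ± 0.23; limma, adjusted p = 0.0368). The kinases MAPK7 (-0.66 ± 0.17; adjusted p = 0.0318) and MAP2K7 (-0.56 ± 0.17; adjusted p = 0.0499, and 0.0551 with the block) were lower in limma. With scaling to total counts MAPK7 and MAP2K7 turned positive, at 0.46 and 0.56, while the median of all genes shifted to 1.12. SRF, the serum response factor that drives FOS, was the highest of the list at 1.54 ± 0.50 (limma, adjusted p = 0.0632, and 0.0189 with the block), edgeR and DESeq2 called it, and MAPK11 was the lowest at -1.07, or 0.03 with total counts. At 24 h SRF was at 1.50 ± 0.50 (limma, adjusted p = 0.0841, and 0.0273 with the block), RPS6KA5, a kinase of CREB and histone H3, was called at 1.15 ± 0.28 (limma, adjusted p = 0.0431), and ELK3 was the lowest at -1.05. The 0 h differences were 1.11 ± 0.50 for SRF, 0.61 ± 0.28 for RPS6KA5, 0.29 ± 0.23 for MAPK14, -0.16 ± 0.17 for MAPK7 and -0.08 ± 0.17 for MAP2K7. The list's median was 0.11 at 48 h and 0.14 at 24 h, against 0.02 and 0.01 over all genes.

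Of 16 other partner proteins, 14 were tested, and BATF was lower in HOPE at 48 h (-1.97 ± 0.52; limma, adjusted p = 0.0361), with -0.93 ± 0.52 at 0 h. BATF is best known in lymphocytes, whose markers were lower in HOPE too, and the share of those cells in its difference was not tested. MAF was the highest at 0.76, and the median 48 h difference of the list was -0.03. For 24 h 0 of 14 were called by limma, between BATF at -1.16 and MAFG at 0.71, with a median of -0.10. JUND, the remaining JUN gene, was not analysed here. Of 16 phosphatases and decay factors that end the response, all were tested and limma called 0 for 24 h and for 48 h, with DUSP8 the highest (0.92 and 0.86), DUSP1 the lowest at 24 h (-0.95) and DUSP5 at 48 h (-0.97, or 0.09 with total counts). Their median was -0.25 at 24 h and -0.30 at 48 h.

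Of 21 genes known as AP-1 targets, 13 were tested. TIMP1, an inhibitor of matrix proteases, was lower in HOPE, at -1.61 ± 0.36 at 24 h (limma, adjusted p = 0.0365) and -1.76 ± 0.36 at 48 h (limma, adjusted p = 0.017). HMOX1, the heme-degrading enzyme, was lower as well, at -1.27 ± 0.24 at 24 h (limma, adjusted p = 0.0282) and -0.87 ± 0.24 at 48 h (limma, adjusted p = 0.0408), the second turning to 0.23 with total counts. HMOX1 was apart already at 0 h, at 93.0, 104 and 121 normalised counts in HOPE pigs 2, 4 and 6, against 199, 196 and 196 in SCS pigs 1, 3 and 5 (-0.89 ± 0.24; limma, adjusted p = 0.66). The 0 h differences were -0.54 ± 0.36 for TIMP1 and 0.54 ± 0.28 for ODC1. ODC1, the first enzyme of polyamine synthesis, was higher by 1.21 ± 0.28 at 48 h (limma, adjusted p = 0.0243) and at 0.90 at 24 h. The median of the list was -0.56 at 24 h and -0.34 at 48 h. Of the 13 targets, 1 was called higher and 2 lower at 48 h, against 3.84% and 2.41% of all genes, and 2 lower at 24 h, against 0.771% of all genes.

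Among 18 tested of 20 other immediate early genes, limma called 0 at 24 h and 0 at 48 h. NR4A3 was the highest, at 3.39 ± 0.95 at 24 h (adjusted p = 0.0587, and 0.0212 with the block) and 2.85 ± 0.95 at 48 h (adjusted p = 0.0663, and 0.0293 with the block) in limma. edgeR and DESeq2 called it at 24 h, and DESeq2 called it at 48 h. It was as far apart at 0 h, at 432, 1890 and 1873 normalised counts in HOPE hearts, against 51.0, 125 and 134 in SCS hearts (3.59 ± 0.95; limma, adjusted p = 0.66). Without HOPE pig 6 the 24 h difference was 2.16 ± 0.85 (limma, adjusted p = 0.0883) and the 48 h difference 2.88 ± 0.85 (limma, adjusted p = 0.0246). At 48 h limma called 22.3% of all genes without that heart. KLF2 was the lowest at 24 h (-1.03) and CCN2 at 48 h (-0.77, or 0.35 with total counts). The list's median was -0.07 for 24 h and 0.12 for 48 h. Of 12 genes of the ATF4 stress branch 11 were tested, and VLDLR was higher in HOPE at 48 h (0.97 ± 0.27; limma, adjusted p = 0.04), with 0.49 ± 0.27 at 0 h. TRIB3 was the highest of that list at 24 h and 48 h (1.20 and 2.68) and DDIT4 the lowest (-1.61 and -1.22), and DDIT4 had an adjusted p of 0.0358 at 24 h with the block in limma. TRIB3 for 24 h was at -0.44 without HOPE pig 6. The median of the branch was 0.16 for 24 h and 0.01 for 48 h.

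After NMP the values are TPM, which are divided by gene length and library total, so levels can be set side by side; read depth is unknown. Of the 4388 genes with a mean of at least 10 TPM all 4 members found were tested. The library labelled SCS stood apart from the 6 HOPE libraries. Its 8 cardiomyocyte markers found of 12 summed to 2515 TPM, against 39419 to 63067 in the HOPE libraries, and its red cell markers to 6161, against 34.25 to 3125. Fibroblast markers summed to 2777 TPM in it and to 578.4 to 1243 in HOPE. It had 3005 genes at 10 TPM or more, against 3835 to 4867. These marker levels go against the labelled cardiomyocytes, so the tissue or label of this library is in doubt and was not checked further, and each direction drawn from it below is that of the library as labelled. It is a single library, assumed in the fit to vary like the others, and the labels do not say whether the libraries came from separate hearts, so p-values here measure only the spread between these samples.

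Across HOPE storage lengths, FOSL1 was higher in every library after 24 h or 48 h than after 3 h. It was at 33.7 and 9.20 TPM after 3 h of HOPE, 77.9 and 60.2 after 24 h, and 79.8 and 62.1 after 48 h. Both longer storage groups lay above both 3 h libraries and overlapped each other. The log2 change was 1.89 ± 0.53 at 24 h against 3 h (limma, adjusted p = 0.241) and 1.93 ± 0.53 at 48 h against 3 h (limma, adjusted p = 0.375), with 0.04 ± 0.53 between 48 h and 24 h (limma, adjusted p = 0.996). The 2 libraries at 3 h differed more than those of either longer time, and without the higher of them the change at 24 h was 2.77. Without the lower of them it was 1.00, and the 48 h change ranged between 1.04 and 2.81 over omissions. Each of these fits leaves 1 library in a group, so only the size of the change is given. Levels are not compared with the cold biopsies, whose kit and unit differ.

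ATF3 was at 85.0 and 123 TPM after 3 h of HOPE, 167 and 277 after 24 h, and 427 and 165 after 48 h. Every library of the longer storage times was above both 3 h libraries. limma gave 1.06 ± 0.49 at 24 h against 3 h (adjusted p = 0.352), 1.37 ± 0.49 at 48 h against 3 h (adjusted p = 0.521) and 0.30 ± 0.49 between 48 h and 24 h (adjusted p = 0.996). Over omissions the 24 h change ranged between 0.70 and 1.43 and the 48 h change between 0.68 and 2.05. FOS was at 55.6 and 57.7 TPM after 3 h, 71.1 and 116 after 24 h, and 586 and 77.7 after 48 h. It too had both longer groups above the 3 h libraries, but 1 library at 48 h held most of the difference. limma gave 0.67 ± 0.79 at 24 h against 3 h (adjusted p = 0.747) and 1.90 ± 0.79 at 48 h against 3 h (adjusted p = 0.59). The 48 h value was 3.35 without the lower 48 h library and 0.45 without the higher. JUNB was at 356 and 231 TPM after 3 h, 467 and 314 after 24 h, and 691 and 305 after 48 h, with overlap between all 3 groups and limma changes of 0.41 ± 0.45 at 24 h (adjusted p = 0.723) and 0.68 ± 0.45 at 48 h (adjusted p = 0.762) against 3 h.

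Thus 3 of the 4 genes had all 4 libraries after 24 h and 48 h above both 3 h libraries, a pattern that 16.6% of all genes tested showed. limma called 0 of 4 members for each of the 3 pairs of HOPE storage lengths, with 0% of all genes called for 24 h and for 48 h against 3 h and 0.0684% for 48 h against 24 h. An unadjusted p under 0.05 was reached by FOSL1 for 24 h, and by FOS, FOSL1 and ATF3 for 48 h, relative to 3 h. JUNB had the highest TPM of the 4 genes in each of the 6 HOPE libraries. Red cell markers were higher after 48 h only, with 152.1 and 104.7 TPM after 3 h of HOPE, 34.25 and 125.6 after 24 h, and 3125 and 1580 after 48 h. The same HOPE 48 h library was higher than its pair in FOS, JUNB, ATF3 and FOSL1; it was also the higher in red cell markers and had 39419 TPM of cardiomyocyte markers, against 63067 in its pair. Their part in the result was not tested.

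**Figure D4:**
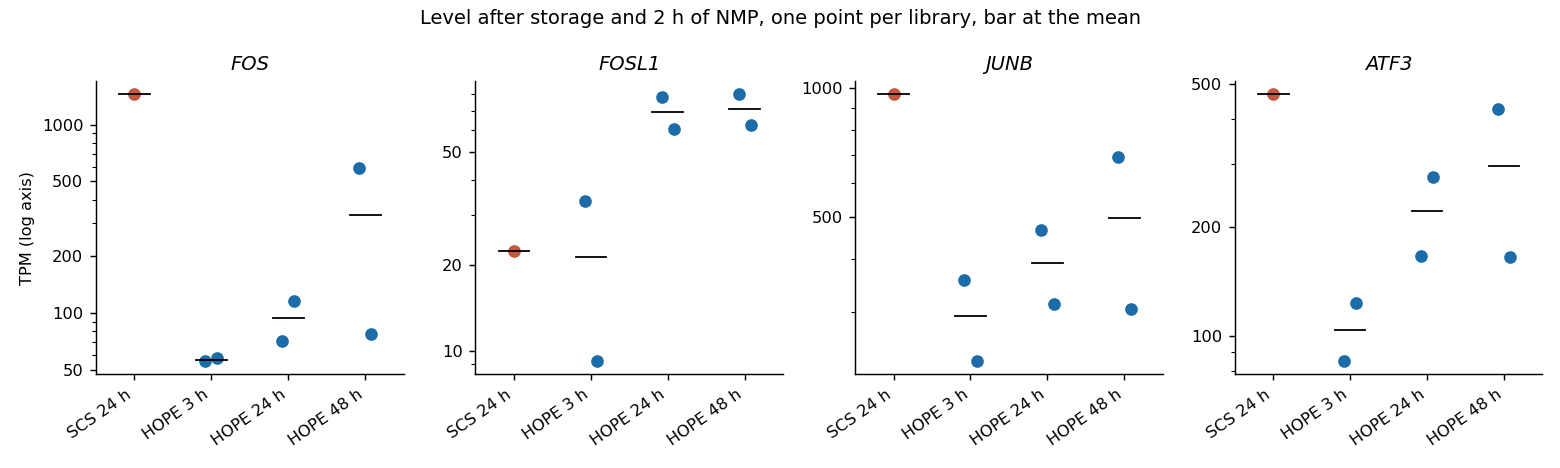
TPM (log axis) of the 4 genes found after storage and 2 h of NMP, with 1 point per library and a bar at the group mean, SCS 24 h in red and HOPE 3, 24 and 48 h in blue. FOS reaches 1450 TPM in the library labelled SCS, and both longer HOPE groups lie above the 3 h libraries in FOS, FOSL1 and ATF3.

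FOS, JUNB and ATF3 were highest in the library labelled SCS, whose tissue or label is in doubt. FOS was at 1450 TPM after 24 h of SCS, against 71.1 and 116 after 24 h of HOPE, a log2 difference of 3.98 ± 0.97 (limma, adjusted p = 0.0113). JUNB was at 967 TPM in SCS, against 467 and 314 in HOPE (1.34 ± 0.55; limma, adjusted p = 0.0694), and ATF3 at 469 TPM, against 167 and 277 (1.12 ± 0.60; limma, adjusted p = 0.141). FOSL1 went the other way, at 22.4 TPM in SCS, against 77.9 and 60.2 in HOPE (-1.57 ± 0.64; limma, adjusted p = 0.0676). FOS was the 1 member of 4 called, against 2.42% of genes called higher and 54.2% in either direction, and the median of all genes was -1.12. Relative to that median the differences were 5.10 for FOS, 2.46 for JUNB, 2.24 for ATF3 and -0.45 for FOSL1. FOS, JUNB and ATF3 exceeded all 6 HOPE libraries, as 8.77% of genes did, and by the gap to the HOPE mean FOS ranked 11th, JUNB 124th and ATF3 130th of 4388. The FOS call was lost, at an adjusted p of 0.104 in limma, when genes with low values were kept. The part of the lower cardiomyocyte and higher red cell and fibroblast values of this library in these differences was not tested.

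Some other immediate early genes were higher in the library labelled SCS alongside FOS. Of 20 listed, 12 were tested after NMP, and limma called 4 higher and 1 lower against 24 h of HOPE, with a list median of 0.50. Of all genes, 2.42% were called higher and 54.2% in either direction. KLF4, a zinc finger factor of the vessel wall, was at 222 TPM in SCS, against 22.7 and 45.3 in HOPE (2.75 ± 0.60; limma, adjusted p = 0.00765). EGR2 (1.97 ± 0.55; limma, adjusted p = 0.0184), EGR1 (1.73 ± 0.53; limma, adjusted p = 0.0263) and PPP1R15A, which restarts protein synthesis after stress (1.85 ± 0.53; limma, adjusted p = 0.0209), were higher, and IER3 was lower at 96.8 TPM, against 1180 and 1779 (-3.89 ± 0.51; limma, adjusted p = 0.00103). The partner BATF2 was higher (2.04 ± 0.52; limma, adjusted p = 0.0135), 1 of 5 tested, with MAFK lowest at -1.16 (0.01 with quantile normalisation) and a median of -0.21.

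In the remaining lists the called genes were lower in the library labelled SCS, apart from PPP1R15A, as most called genes were. Of all 4388 genes limma called 2272 lower and 106 higher, 54.2% in either direction. Of 6 upstream genes tested, MAP3K5 (-2.19 ± 0.39; limma, adjusted p = 0.00342) and RPS6KA3 (-1.75 ± 0.57; limma, adjusted p = 0.0318) were lower, SRF was the highest at -0.35, or 0.80 with quantile normalisation, and the median was -0.96. Of 5 terminators, DUSP10 was lower (-2.15 ± 0.69; limma, adjusted p = 0.0311), DUSP1 was highest at 0.83, and the median was 0.38. Of 9 targets, VEGFA, the endothelial growth factor, was lower at 15.6 TPM, against 192 and 157 (-3.40 ± 0.58; limma, adjusted p = 0.0029), CXCL8 was highest at 1.31, and the median was 0.25. Of 7 genes of the ATF4 branch, VLDLR was lower (-2.49 ± 0.33; limma, adjusted p = 0.000997), PPP1R15A was higher, and the median was -0.50.

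For 48 h against 3 h of HOPE, limma called 0 genes in any of the 6 lists. The medians were 0.99 for 12 other immediate early genes, 1.08 for 5 terminators, 0.79 for 9 targets and 0.62 for 5 partners, against 0.02 over all genes tested. The 6 upstream genes had a median of 0.08 and the 7 of the ATF4 branch 0.48. Of the 12, 5 and 9 early genes, terminators and targets, all were positive, without passing the test. The share of all genes with a positive change was not computed. Red cell markers were at 3125 and 1580 TPM after 48 h, against 152.1 and 104.7 after 3 h, and their part in these medians was not tested. Leaving out 1 library brought DUSP1 to 0.05, BTG2 to 0.66, the early gene NR4A3 to -0.037 and the target SPHK1 to -0.42. The signs of NR4A3 and SPHK1 thus depend on single libraries. SPHK1 was at 74.6 and 23.8 TPM after 3 h and at 62.9 and 49.3 after 48 h. SESN2, a stress-induced leucine sensor, was at 98.2 and 22.6 TPM after 48 h, against 3.44 and 2.34 after 3 h (3.65 ± 0.61; limma, adjusted p = 0.177), the highest of the ATF4 branch, where VLDLR was the lowest at -0.33. CXCL8, a neutrophil chemokine, was at 51.8 and 14.8 TPM, against 5.33 and 2.54 (2.61 ± 0.61; limma, adjusted p = 0.309), and SPHK1 was the lowest target at 0.39. DUSP10 (1.59) and DUSP1 (0.78) bounded the terminators, MAFF (1.49) and CREM (-0.001) the partners, and BTG2 (1.51) and NR4A3 (0.53) the early genes. RPS6KA3 (0.58) was the highest upstream gene.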

How the data were processed

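RNA sequencing values of pig myocardium were used as deposited, from 24 stored and 7 reperfused libraries; 11 further columns with no matching sample were left aside. Per the file headers and their values, the authors' stored-heart table is a signal of normalised counts, and whole reads were recovered in every library (100% of values whole at a tolerance of 1e-06). The deposited table after NMP was read as TPM, since each column sums to 1000000; a test for normalised counts had been planned. Per the labels' protocols stored hearts used a stranded kit and reperfused hearts another; no source used here says if reads were counted by strand. The submitters' processing notes name featureCounts 2.0.6, STAR 2.5.2b, DESeq2, Subread 1.5.2, HISAT2 2.2.1 and Trimmomatic 0.36, without roles.

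limma 3.58.1 in R 4.3.3 was fitted once per table on log2(value + 1), a scale that understates changes of low genes, with a mean trend and Benjamini-Hochberg adjustment over genes with a mean of at least 10. edgeR 4.0.16 and DESeq2 1.42.0 on recovered reads, other pseudocounts, filters and scalings, a pig block and omissions were alternatives; the fits were tested on simulated data. Samples of the same pig deviated together (r of 0.232 to 0.73 in 36 pairs, against -0.507 to 0.204 in 72 others), so the pig pairs stored samples; as a random term its correlation was 0.44. The block raised all-gene calls for HOPE against SCS to 6 at 12 h, 1396 at 24 h and 1628 at 48 h, against 2, 288 and 884. Named genes are the 7 members, list genes that passed, the highest and lowest of each list, and the 3 genes most like FOS, JUN and ATF3. A gene that this rule would name is not reported here. The members and lists were chosen with earlier results of these data known. Intervals and limits from a count of 0 cover counting error only. Positions are from the RefSeq table of the same build. No sequences are printed, since none were given with the reference tables.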

Additional observations from a re-analysis of the deposited data

Results flagged for a closer look

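FOSL2 lay above its own 0 h value in every HOPE heart and below it in every SCS heart after 12 h, with a difference in mean change of 0.82 (log2), and after 48 h, with a difference of 1.12. Averaged over 12, 24 and 48 h the difference was 0.90. FOSB passed the minimum mean only through HOPE pig 6. On the average of the 3 times it too was up in every HOPE heart and down in every SCS heart. The difference was 1.25, on few reads outside HOPE pig 6. That average takes the 0 FOSB reads of SCS pig 5 after 24 h and 48 h as 0; at 3 reads, the limit that a count of 0 allows, its mean change would be 0.86, so its direction is not fixed by the data. limma's test of the difference in change over all genes did not call any of these, with adjusted p = 0.988 for FOSL2 at 48 h and 0.997 for its average. Of all genes tested, 3.08% were up in every HOPE heart and down in every SCS heart on average over the 3 times.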

How the results depend on the processing

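Of 490 recomputed values of members 454 kept their direction and side of the threshold, 13 lost a call, 10 gained one and 13 changed sign; of 678 recomputed values of list genes, 544 kept both. FOSL2 was the member called at 24 h; 0 members were called there without the low-value filter, with quantile normalisation, with total-count scaling or with only the compared groups fitted, and 0 to 1 over omissions. At 48 h 0 were called with only the compared groups, 3 with total counts (FOSL2, JUN and JUNB), and 0 to 2 over omissions. Total counts called 57.3% of all genes there. At 12 h 1 was called with DESeq2 and 0 to 1 over omissions. For SCS at 48 h against 0 h total counts called 2 members, FOSL2 and JUNB, and 39.5% of all genes. JUNB was then at -0.96, where the main value was 0.02. That scaling moved the median of all genes by -0.99, and JUNB relative to it was 0.03. After NMP, SCS against HOPE at 24 h had 0 members called without the filter. It had 2 with quantile normalisation or the replicate block, which called FOS and FOSL1. Equal numbers after NMP share only a number (r of 0.09 to 0.384 in 6 pairs, the mirror of -0.384 to -0.09 in the other 6), so this block is no paired result; it also called CXCL8 and SESN2 for 48 h against 3 h. For SCS against HOPE after NMP limma called 20.9% of all genes with quantile normalisation and 55.8% with the replicate block. The pig block changed no member's call. With no sample left out, calls over all genes for HOPE against SCS ranged from 0 to 86 at 12 h, 0 to 1521 at 24 h and 0 to 8106 at 48 h; omissions gave 0 to 1432, 2 to 2721 and 5 to 3282, the highest without HOPE pig 6 at 12 h and without SCS pig 1 at 24 h and 48 h. They ranged from 0 to 5586 for SCS at 48 h against 0 h (0 to 1 over omissions) and from 919 to 2450 for SCS against HOPE after NMP (1253 to 1569).

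Total counts turned FOS at 48 h to 0.78, CCN2 to 0.35, DUSP5 to 0.086, HMOX1 to 0.23, MAP2K7 to 0.56, MAPK11 to 0.029 and MAPK7 to 0.46 for HOPE against SCS, and quantile normalisation turned MAFK to 0.011 and SRF to 0.80 for SCS against HOPE after NMP. Over omissions the values ranged from -0.91 to 0.27 for FOS at 48 h, from -0.20 to 1.56 for ATF3 and -0.38 to 1.99 for FOSB in HOPE at 24 h, from -0.041 to 0.065 for JUNB in SCS at 48 h and from -0.44 to 3.98 for TRIB3 at 24 h. After 48 h against 24 h of HOPE and NMP they ranged from -0.38 to 0.99 for ATF3, -0.23 to 2.67 for FOS, -0.14 to 0.22 for FOSL1 and -0.33 to 0.85 for JUNB. Against 3 h they ranged from -0.28 to 0.28 for CREM, -0.037 to 1.10 for NR4A3, -0.13 to 1.29 for RPS6KA3 and -0.42 to 1.20 for SPHK1, and for SRF in SCS from -0.75 to 0.05. The cause of these changes was not tested. Depth limits FOSB and FOSL1, at 0 to 35 reads outside HOPE pig 6 at 12 h and 24 h; after NMP depth is unknown.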
